A study of Mus musculus with 2 samples.

Results

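Small nucleolar RNAs and other small structured RNAs were compared between p65-null and wild-type mouse embryonic fibroblasts. Members were chosen by name: every entry whose mouse symbol begins with Snora, Snord, Scarna or Rnu, together with Rpph1, Rmrp, Terc and Vaultrc5. They number 110 of the 16881 RefSeq transcripts in the deposited table, made up of 64 Snord, 34 Snora, 6 Scarna, 2 Rnu and 4 other RNAs. Rn7sk, Rny1 and Rny3 belong to the same set and were not analysed here.

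The study asked how gene expression differs with and without p65, the NF-κB subunit encoded by Rela. Total RNA was sequenced from immortalized embryonic fibroblasts of strain C57BL/6, 1 library of genotype p65-/- (p65-null) and 1 of genotype p65+/+ (wild-type). The sources used here do not say how the null allele was made or how the lines were immortalized, and each genotype stands for a single line. Since each genotype has 1 library, no test was made and no ratio can be checked against replicates. Intervals in the text are exact 95% intervals that cover counting error only. In a bulk culture, fewer cells of a kind and less RNA per cell cannot be told apart.

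Most snoRNAs are cut out of the introns of longer host transcripts and act as guides in protein particles. Box C/D snoRNAs (Snord) direct ribose methylation and box H/ACA snoRNAs (Snora) direct pseudouridylation, mainly of ribosomal RNA, while the related Scarna RNAs do the same for spliceosomal RNAs in Cajal bodies. Rpph1 is the RNA subunit of RNase P, which trims the leader of precursor tRNAs, and Rmrp is the RNA of RNase MRP, which cleaves precursor ribosomal RNA. Both are transcribed from genes of their own by RNA polymerase III, as is Vaultrc5, the RNA of the vault particle, whereas Terc is the template of telomerase.

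Sequences are shown for a selection of RNAs that were higher or lower in p65-null cells, and for Snora78 as an abundant RNA of similar level in both libraries. The selection holds Scarna13, which was short of 2-fold, and leaves out Snora74a, which passed it. They are GENCODE M21 transcripts on GRCm38, written 5′ to 3′. Rpph1 is given by its first 300 bases, chr14:50807468-50807767 (minus strand), and Rmrp whole, chr4:43492788-43493058 (minus strand). Both carry neither snoRNA box pair and are shown wholly in lower case.
Rpph1: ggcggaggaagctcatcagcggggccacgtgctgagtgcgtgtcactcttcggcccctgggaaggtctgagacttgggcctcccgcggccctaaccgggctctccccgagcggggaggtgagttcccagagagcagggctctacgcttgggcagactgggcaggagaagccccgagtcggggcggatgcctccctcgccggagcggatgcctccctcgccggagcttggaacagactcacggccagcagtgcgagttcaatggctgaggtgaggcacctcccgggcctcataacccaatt
Rmrp: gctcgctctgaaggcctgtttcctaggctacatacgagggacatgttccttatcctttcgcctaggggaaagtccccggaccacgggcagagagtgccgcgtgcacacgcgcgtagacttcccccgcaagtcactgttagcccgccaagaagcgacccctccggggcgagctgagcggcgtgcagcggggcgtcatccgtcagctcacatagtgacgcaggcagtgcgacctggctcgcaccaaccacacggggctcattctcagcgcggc

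Among the box C/D RNAs, capitals mark box C (TGATGA) near the 5′ end and box D (CTGA) near the 3′ end. Scarna6 lies at chr1:87784556-87784820 (plus strand), Snord17 at chr2:144265979-144266216 (minus strand), Snord15b at chr7:99479563-99479707 (minus strand) and Snord52 at chr17:34950952-34951017 (minus strand).
Scarna6: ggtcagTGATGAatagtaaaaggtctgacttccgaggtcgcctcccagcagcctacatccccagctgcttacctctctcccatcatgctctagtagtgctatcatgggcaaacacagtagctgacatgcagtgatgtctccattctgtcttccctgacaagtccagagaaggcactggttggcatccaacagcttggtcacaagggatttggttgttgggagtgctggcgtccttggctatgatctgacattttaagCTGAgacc
Snord17: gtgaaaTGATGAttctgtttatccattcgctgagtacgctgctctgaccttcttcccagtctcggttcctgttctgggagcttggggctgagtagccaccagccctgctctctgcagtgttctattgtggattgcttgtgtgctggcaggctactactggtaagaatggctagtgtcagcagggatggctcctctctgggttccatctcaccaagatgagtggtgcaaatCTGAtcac
Snord15b: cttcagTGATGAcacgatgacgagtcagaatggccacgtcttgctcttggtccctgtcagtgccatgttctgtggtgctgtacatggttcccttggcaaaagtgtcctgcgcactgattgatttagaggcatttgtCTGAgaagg
Snord52: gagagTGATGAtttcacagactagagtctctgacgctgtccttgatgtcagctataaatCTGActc

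Among the box H/ACA RNAs, capitals mark the ACA that stands 3 bases from the 3′ end. Scarna13 lies at chr12:105031075-105031349 (minus strand), Snora2b at chr15:98526346-98526482 (minus strand) and Snora78 at chr17:24719676-24719803 (minus strand).
Scarna13: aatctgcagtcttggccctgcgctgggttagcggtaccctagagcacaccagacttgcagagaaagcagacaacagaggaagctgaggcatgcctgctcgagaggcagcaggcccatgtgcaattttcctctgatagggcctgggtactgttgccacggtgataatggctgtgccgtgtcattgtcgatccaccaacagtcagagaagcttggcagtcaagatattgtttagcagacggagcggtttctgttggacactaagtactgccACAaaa
Snora2b: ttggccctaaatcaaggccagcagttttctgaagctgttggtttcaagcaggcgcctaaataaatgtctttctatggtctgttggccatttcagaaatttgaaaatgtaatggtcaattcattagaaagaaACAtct
Snora78: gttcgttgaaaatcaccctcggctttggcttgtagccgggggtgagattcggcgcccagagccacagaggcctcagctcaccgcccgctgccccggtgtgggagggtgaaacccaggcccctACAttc

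Most Snord and Snora sequences held a box of their class. On the sense strand, TGATGA within the first 25 bases was found in 40 of 64 Snord sequences (62.5%) and 0 of 34 Snora sequences, against 0.865% of 141767 GENCODE transcripts. CTGA within the last 15 bases was found in 58 Snord sequences (90.6%) and 2 Snora sequences (5.88%), against 7.11% of all transcripts. ACANNN within the last 8 bases was found in 29 Snora sequences (85.3%) and 2 Snord sequences (3.12%), against 6.5% of all transcripts. Of the 6 Scarna sequences, 2 held TGATGA, 3 held CTGA and 1 held ACANNN in these windows. The 2 Snord sequences with ACANNN, Snord19 and Snord70, held neither TGATGA nor CTGA there. Many entries are annotated shorter in RefSeq than in GENCODE: the RefSeq span was more than 5 bases shorter for 70 of the 110 members, with medians of 87 bases in RefSeq and 108.5 bases in GENCODE.

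The p65-null library held 15441394 fragments and the wild-type library 20794476. Rela itself had 198.5 p65-null and 1918 wild-type fragments, a log2 ratio of -2.79 (-3.01 to -2.58). All 8 fibroblast markers were measured in both libraries, with 371066 p65-null and 252104 wild-type fragments in sum. Their log2 ratios were above 0 for 6, up to 3.64 for S100a4, and below 0 for 2, Thy1 (-3.10) and Pdgfrb (-0.41). The 4 epithelial markers summed to 37 p65-null fragments and 1 wild-type fragment, and Ptprc, Cdh5 and Myod1, which define blood, endothelial and muscle cells, had 0 p65-null and at most 2 wild-type fragments. Other genes of these lists had more. Cd68 (blood) had 61.5 p65-null and 29 wild-type fragments, Kdr (endothelium) 29 p65-null and 69 wild-type, and Des (muscle) 16.5 p65-null and 4 wild-type. The whole lists summed to 68 p65-null and 33 wild-type fragments for blood (3 genes) and 30 p65-null and 72 wild-type for endothelium (3 genes). For muscle (2 genes) the sums were 16.5 p65-null and 6 wild-type. The part of such cells in the results was not tested.

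Of the 110 small RNAs, 38 reached a mean of at least 1 CPM, the fragments scaled to a common library size, and are called measured: 12 Snord, 19 Snora, 2 Scarna, 2 Rnu and 3 other RNAs. The measured RNAs divided into a few that were several-fold higher in p65-null cells and many that differed by less than their counting error. A ratio of at least 2-fold was found upward for 6 (15.8%) and downward for 2 (5.26%), against a background of 12.2% upward and 13.7% downward among all 12135 measured entries. The median log2 ratio, p65-null over wild-type, was 0.06 for the small RNAs and -0.03 for all measured entries. Among entries as sparse as most snoRNAs, with 1 to 5 CPM, 28.0% passed 2-fold upward and 22.9% downward. The interval lay above 0 for 8 small RNAs, lay below 0 for 4 and held 0 for 26.

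**Figure D1:**
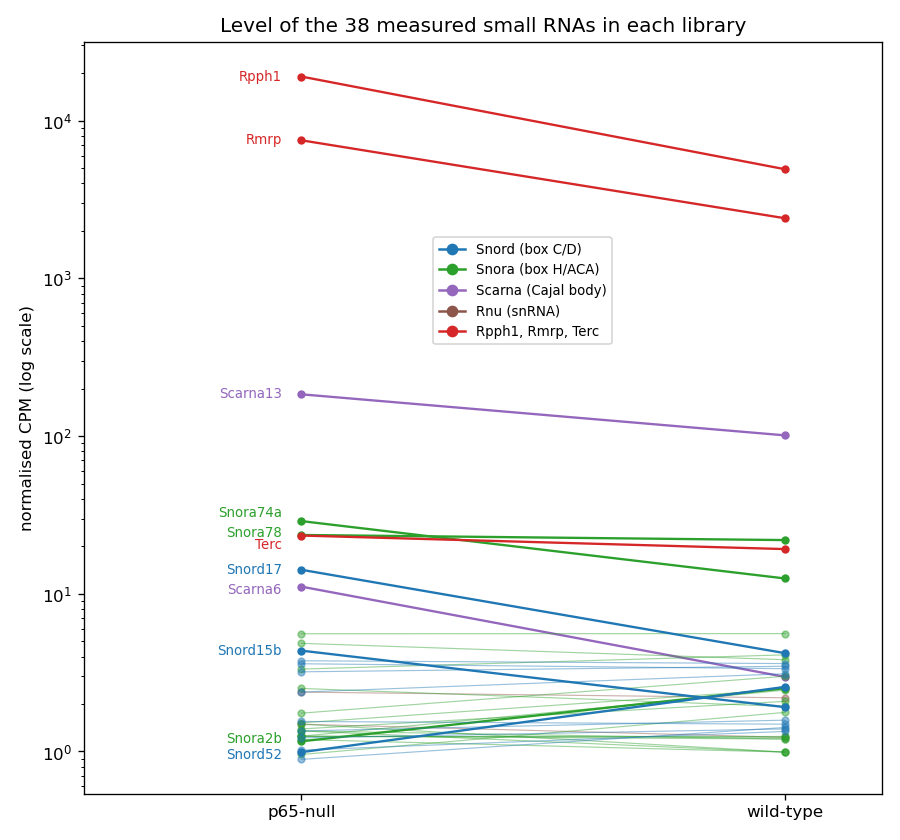
Level of the 38 measured small RNAs in the p65-null library (left) and the wild-type library (right), as normalised CPM on a log axis; each line is 1 RNA, coloured by class, and the named RNAs are drawn darker. Rpph1 and Rmrp stand far above the rest in both libraries and slope down toward wild-type, while most snoRNAs lie under 6 CPM with nearly level lines.

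Rpph1 and Rmrp carried nearly all of the difference in the summed signal. Rpph1 had 288424 fragments (19040 CPM) in the p65-null library, against 104237 fragments (4917 CPM) in the wild-type library. Its log2 ratio was 1.95 (1.94 to 1.96), or 3.87-fold higher. Rmrp had 113708 fragments (7507 CPM) in the p65-null library, against 50952 fragments (2404 CPM) in the wild-type library, a log2 ratio of 1.64 (1.63 to 1.66). Both RNA subunits of the related ribonucleases were thus more abundant in p65-null cells by more than 3-fold. Rpph1 took 1.87% of all p65-null fragments, against 0.501% of wild-type fragments. Rmrp took 0.736% of p65-null fragments, against 0.245% of wild-type fragments. Together they made up 98.6% of the small RNA fragments in p65-null cells and 96.7% in wild-type cells. The other 108 small RNAs summed to 0.0359% of p65-null fragments (0.0349% to 0.0368%) and 0.0252% of wild-type fragments (0.0245% to 0.0258%).

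On the level per kilobase of annotated length, Rpph1 stood at 2.15 times Rmrp in p65-null cells and 1.73 times Rmrp in wild-type cells. Rpph1 therefore differed more than Rmrp, by 0.31 on the log2 scale. Neither gene has a listed host. Parp2, the neighbour of Rpph1, had 434 p65-null and 576.5 wild-type fragments, a log2 ratio of 0.08 (-0.11 to 0.26). Ccdc107, the neighbour of Rmrp, had 271.5 p65-null and 421.5 wild-type fragments, a log2 ratio of -0.15 (-0.38 to 0.07). The neighbouring messenger RNAs thus did not share the ratio of either RNA. With a correction for GC content and length across all entries, the log2 ratio was 1.28 for Rpph1 and 1.07 for Rmrp. Their sequences are 67.1% and 64.2% GC, against a median of 50.5% for all measured entries of the table.

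Other polymerase III and telomerase RNAs were far sparser, and the median log2 ratio of Rpph1, Rmrp and Terc was 1.64. Terc had 355 p65-null and 407.5 wild-type fragments (23.4 CPM in p65-null, 19.2 CPM in wild-type), a log2 ratio of 0.29 (0.08 to 0.49). With the GC and length correction the ratio of Terc was -0.45, and scaled to 80 ribosomal protein genes it was -0.12. Vaultrc5 had 8 p65-null and 3 wild-type fragments, too few to be measured. The RNAs of the minor spliceosome were close to even within wide intervals, with a median log2 ratio of 0.20. Rnu11 had 22.5 p65-null and 26 wild-type fragments, a log2 ratio of 0.28 (-0.61 to 1.15). Rnu12 had 36 p65-null and 46.5 wild-type fragments, a log2 ratio of 0.12 (-0.55 to 0.77).

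The Cajal body RNAs were measured in 2 of 6 cases, and both were higher in p65-null cells, with a median log2 ratio of 1.38. Scarna6 had 167.5 p65-null and 63 wild-type fragments (11.1 CPM in p65-null, 2.97 CPM in wild-type), a log2 ratio of 1.90 (1.47 to 2.34). Scarna13, the most abundant guide RNA of the set per kilobase, had 2785 p65-null and 2146 wild-type fragments (184 CPM in p65-null, 101 CPM in wild-type). Its log2 ratio was 0.86 (0.78 to 0.94), short of 2-fold. Scarna2, Scarna3a, Scarna3b and Scarna10 had at most 6.5 p65-null and 3 wild-type fragments each.

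The box C/D class had a median log2 ratio of -0.15 over its 12 measured RNAs (0.12 with the GC and length correction), with 2 past 2-fold upward and 1 downward. Snord17 had 215 p65-null and 89 wild-type fragments (14.2 CPM in p65-null, 4.20 CPM in wild-type), a log2 ratio of 1.76 (1.39 to 2.13). Snord15b had 66 p65-null and 40.5 wild-type fragments, a log2 ratio of 1.19 (0.60 to 1.79). Snord52 ran the other way, with 15 p65-null and 54.5 wild-type fragments and a log2 ratio of -1.38 (-2.31 to -0.53). These were the 3 box C/D RNAs whose intervals left out 0.

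For the other 9 measured box C/D RNAs the interval held 0. Snord22, known in frogs for its part in ribosomal RNA processing rather than as a guide, had 54.5 p65-null and 71 wild-type fragments, a log2 ratio of 0.10 (-0.43 to 0.63). Snord104 had 57 p65-null and 76.5 wild-type fragments, a log2 ratio of 0.06. Snord96a had 48.5 p65-null and 73.5 wild-type fragments, a log2 ratio of -0.12. These were the best covered of the 9, and each lay close to an even ratio. Snord33, in Rpl13a, had 36 p65-null and 66 wild-type fragments, a log2 ratio of -0.39 (-1.02 to 0.22). Snord83b, in Rpl3, had 13.5 p65-null and 30 wild-type fragments, a log2 ratio of -0.67 (-1.71 to 0.30). The remaining 4, Snord16a in Rpl4, Snord42b in Rpl23a, and Snord49a and Snord49b in 2410006H16Rik, had 15.5 to 23.5 p65-null and 28.5 to 33.5 wild-type fragments, with log2 ratios of -0.39 to 0.06.

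The box H/ACA class had a median log2 ratio of 0.03 over 19 measured RNAs (-0.38 under ribosomal protein scaling), with 1 past 2-fold upward and 1 downward. Snora74a had 438.5 p65-null and 266 wild-type fragments (28.9 CPM in p65-null, 12.5 CPM in wild-type), a log2 ratio of 1.21 (0.98 to 1.43). Snora78, in Snhg9, had 358 p65-null and 464.5 wild-type fragments (23.6 CPM in p65-null, 21.9 CPM in wild-type), a log2 ratio of 0.11 (-0.09 to 0.31). The best covered H/ACA RNAs therefore included 1 with an interval well above 0 and 1 near even. Snora2b had 17.5 p65-null and 53.5 wild-type fragments, a log2 ratio of -1.13 (-2.00 to -0.33). Snora24 had 19 p65-null and 52 wild-type fragments, a log2 ratio of -0.97 (-1.81 to -0.19). Snora47 had 26.5 p65-null and 63.5 wild-type fragments, a log2 ratio of -0.78 (-1.49 to -0.10). These 3 were the measured H/ACA RNAs whose intervals lay below 0, and with the GC and length correction Snora2b moved to 0.07.

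The other 14 measured H/ACA RNAs had intervals that held 0. Snora65 had 84.5 p65-null and 118.5 wild-type fragments (5.58 CPM in p65-null, 5.59 CPM in wild-type), with a fold of 1.00 (0.752 to 1.34). Snora64 had 50.5 p65-null and 87 wild-type fragments, a log2 ratio of -0.30 (-0.83 to 0.22). Snora7a, in Rpl32, had 73.5 p65-null and 81 wild-type fragments, a log2 ratio of 0.34 (-0.13 to 0.82). For these 3 the intervals reached no further than 1.78-fold either way. Snora26 had 14.5 p65-null and 37.5 wild-type fragments, a log2 ratio of -0.89 (-1.87 to 0.02). Snora81, in Eif4a2, had 23 p65-null and 52.5 wild-type fragments, a log2 ratio of -0.71 (-1.48 to 0.03). Snora17, in Snhg7, had 21 p65-null and 44 wild-type fragments, a log2 ratio of -0.58 (-1.41 to 0.20). Each of the 3 had an interval that just reached or spanned 0, and with the GC and length correction Snora81 had a log2 ratio of 0.36. Snora44 had 38 p65-null and 41 wild-type fragments, a log2 ratio of 0.38 (-0.30 to 1.05). Snora3, in Rpl27a, had 22.5 p65-null and 21 wild-type fragments, a log2 ratio of 0.58 (-0.34 to 1.51). Snora5c in Tbrg4, Snora21 in Rpl23, Snora43 in Snhg7, Snora52 in Rplp2 and Snora70 in Rpl10 had 18 to 20.5 p65-null and 21 to 26.5 wild-type fragments, with log2 ratios of 0.00 to 0.45.

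**Figure D2:**
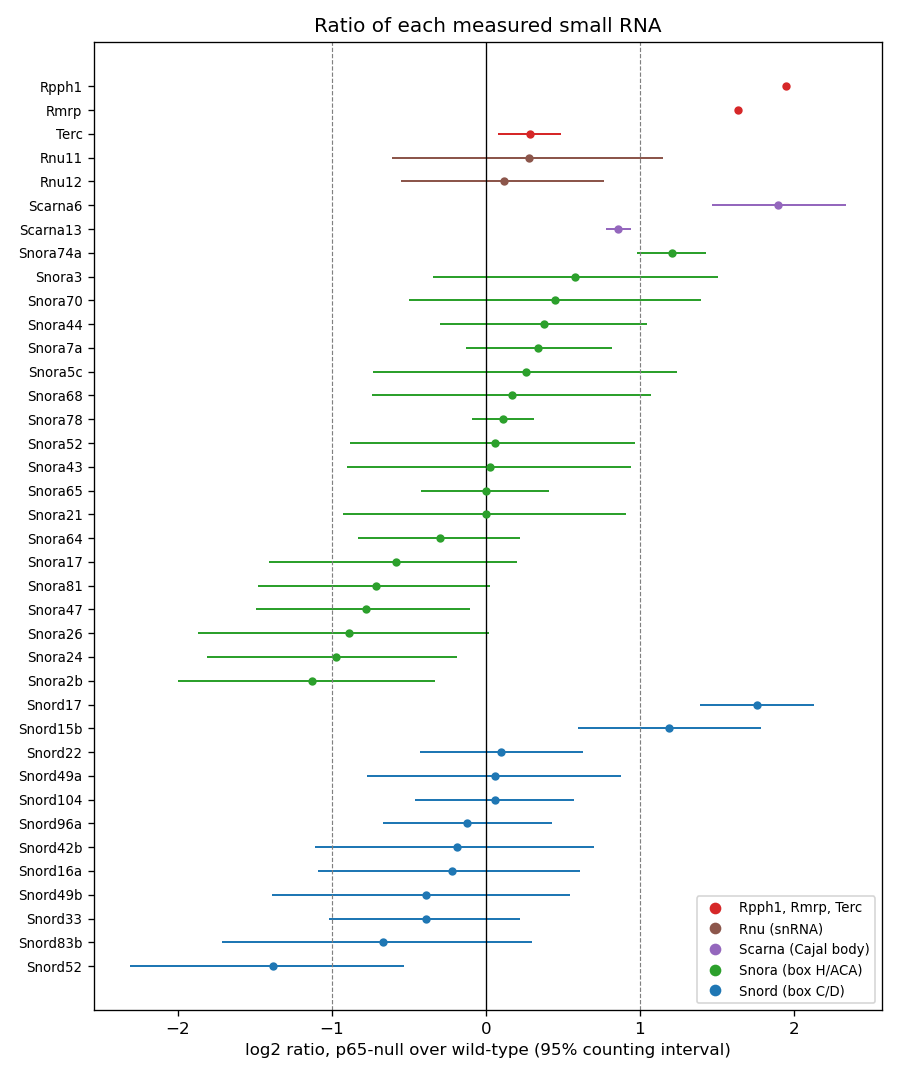
Log2 ratio, p65-null over wild-type, of each of the 38 measured small RNAs (points) with its 95% counting interval (bars), grouped and coloured by class; the dashed lines mark 2-fold in either direction. Rpph1, Rmrp, Scarna6, Snord17, Snora74a and Snord15b lie beyond the right dashed line, and Snord52 and Snora2b beyond the left.

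The other 72 small RNAs fell under the minimum, and 25 of them had at least 10 fragments over both libraries. None of the 41 with a ratio had an interval that left out 0. Among those hosted by ribosomal protein genes, Snora33 in Rps12 had 6 p65-null and 19.5 wild-type fragments, Snora62 in Rpsa had 7 p65-null and 15 wild-type, and Snora69 in Rpl39 had 11.5 p65-null and 8.5 wild-type. Snord43 in Rpl3 had 14.5 p65-null and 15.5 wild-type fragments, and Snord32a in Rpl13a had 15 p65-null and 16 wild-type. Snord58b in Rpl17 had 1.5 p65-null and 8.5 wild-type fragments. These 6 leaned in both directions. Among those in other genes of translation, folding or ribosome assembly, Snora28 in Eif5 had 5 p65-null and 12 wild-type fragments, Snora41 in Eef1b2 had 4 p65-null and 9.5 wild-type, and Snord2 in Eif4a2 had 5 p65-null and 11.5 wild-type. Snora15 in Cct6a had 4 p65-null and 12 wild-type fragments, Snord95 in Rack1 had 9 p65-null and 7 wild-type, and Snord19 in Gnl3 had 2 p65-null and 11 wild-type. In 5 of these 6 the log2 ratio was below 0, with intervals that held 0. Of the rest, Snora31 in Tpt1 had 7.5 p65-null and 18.5 wild-type fragments, Snora23 in Ipo7 had 16 p65-null and 10.5 wild-type, and Snora34 in Kansl2 had 4.5 p65-null and 7.5 wild-type. Snord111 in Sf3b3 had 9.5 p65-null and 7.5 wild-type fragments, Snord65 in 2410006H16Rik had 2 p65-null and 8 wild-type, and Snord12, with no listed host, had 7 p65-null and 6.5 wild-type. The least covered 47, of which 39 were Snord, summed to 90.5 p65-null and 114.5 wild-type fragments. In low values a whole fragment gives an even number of reads. Values of 1 to 20 reads were odd for 41.7% of 60 small RNAs in the p65-null library and 55.6% of 54 in the wild-type library, against 24.3% of all p65-null and 27.2% of all wild-type entries of that size. Odd values were thus more frequent among these short entries.

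The 6 small RNAs at least 2-fold higher in p65-null cells were mostly long ones. Of the 6 measured RNAs with an annotated length of 200 bases or more, 4 passed 2-fold upward, and all 6 had a log2 ratio above 0, with a median of 1.70, although Terc fell below 0 under the GC and length correction and ribosomal protein scaling. The 22 of at least 100 but under 200 bases had a median of 0.08, with 2 past 2-fold upward and 1 downward. The 10 under 100 bases had a median of -0.21, with 0 past 2-fold upward and 1 downward. Across the 38 RNAs the Spearman correlation of length with log2 ratio was 0.55, and across the 31 measured Snord and Snora RNAs alone it was 0.35. The correlation with GC content was 0.45. Over all 12059 measured entries with a sequence these values were -0.22 for length and 0.43 for GC content. All of these points share the same pair of libraries, and coverage rises with length. Of 65 small RNAs under 100 bases only 10 were measured, against 6 of 7 with 200 bases or more. With the GC and length correction the log2 ratio was 1.72 for Scarna6, 1.56 for Snord17, 1.15 for Snord15b, 1.06 for Snora74a and 0.58 for Scarna13. The same correction gave -0.78 for Snord52, short of 2-fold. Scaled to ribosomal protein genes, Snora74a (0.80) and Snord15b (0.78) also fell short of 2-fold.

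**Figure D3:**
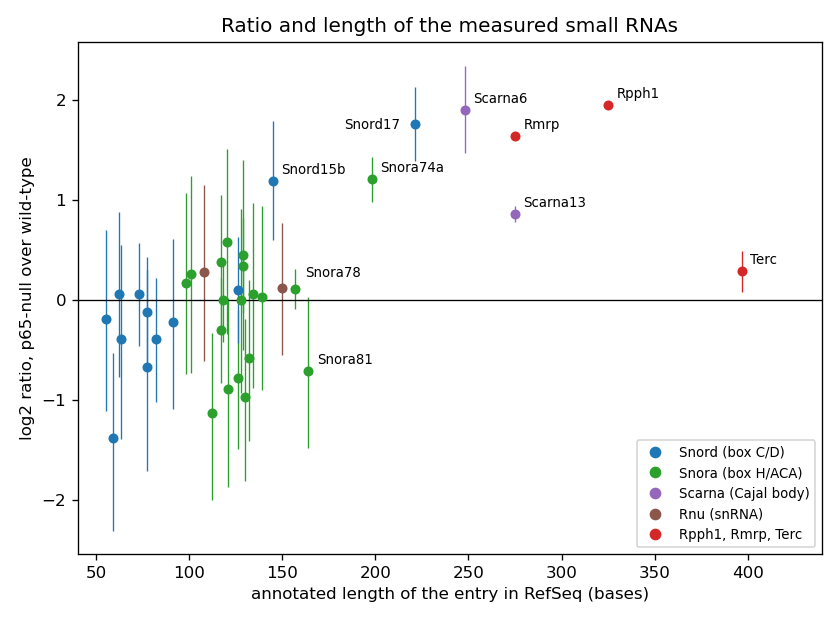
Log2 ratio, p65-null over wild-type, of the 38 measured small RNAs against their annotated length in RefSeq (bases), with 95% counting intervals as bars and colours for the classes. Points of 200 bases or more lie above 0, from 0.29 for Terc (-0.12 under ribosomal protein scaling) to 1.95 for Rpph1, while shorter RNAs scatter on both sides of 0 with wide intervals.

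Host genes gave a second reading at the same loci. Of the 110 small RNAs, 100 lie within a listed host. GENCODE M21 placed 96 of them in a host on the same strand, 46 with overlap of an annotated host exon and 50 within introns. The other 4 were placed by RefSeq spans, which give no strand: Snora74a in Snhg4, Snora78 in Snhg9, and Snora17 and Snora43 in Snhg7. Reads of a host exon and of a small RNA that overlaps it may have been divided between them, and the sources used here do not say whether strand was used in counting. For 32 measured small RNAs the host was measured too, over 30 hosts. The host ratio lay inside the counting interval of its small RNA in 19 cases and outside in 13, of which the small RNA was above its host in 6 and below in 7. The Spearman correlation between host and small RNA ratios was 0.05 over these 32, 0.34 over the 20 with exon overlap and -0.48 over the 8 within introns. Those 8 came from 7 hosts. Most of the small RNA ratios had wide counting intervals, which blur a correlation, so these values cannot show whether the ratios are linked. Per kilobase, 23 of the 32 small RNAs were sparser than their host in both libraries, and 6 were denser in both. Snora17 and Snora43 could not be compared per kilobase, because no transcript length was at hand for their host Snhg7.

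The small RNAs with the largest upward ratios mostly had hosts with no such rise. Atg16l1, an autophagy gene that hosts Scarna6 in an intron, had 534 p65-null and 739.5 wild-type fragments, a log2 ratio of 0.02 (-0.15 to 0.18). Snx5, a sorting nexin gene that hosts Snord17 in an intron, had 2078 p65-null and 3967.5 wild-type fragments, a log2 ratio of -0.45 (-0.53 to -0.37). Snhg4, the noncoding host of Snora74a by RefSeq span without strand, had 139 p65-null and 400.5 wild-type fragments, a log2 ratio of -1.04 (-1.33 to -0.76). In these 3 pairs the intervals of small RNA and host were far apart. Snhg10, the noncoding host of Scarna13, had 23 p65-null and 43 wild-type fragments, a log2 ratio of -0.42 (-1.22 to 0.34). Per kilobase, Scarna13 had 669 CPM in p65-null cells and 368 CPM in wild-type cells, against 2.88 CPM in p65-null and 3.85 CPM in wild-type cells for Snhg10. Snord15b was the exception among them. Its host Rps3, a ribosomal protein gene, had 26183.5 p65-null and 22994.5 wild-type fragments, and the host ratio of 0.67 lay inside the interval of Snord15b (0.60 to 1.79), whose annotated span overlaps an Rps3 exon.

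The 2 small RNAs at least 2-fold lower overlap host exons and had lower hosts. 1110038B12Rik, the host of Snord52, had 694 p65-null and 1850 wild-type fragments, a log2 ratio of -0.93 (-1.06 to -0.80). Kansl2, a gene of a histone acetyltransferase complex and the host of Snora2b, had 978 p65-null and 2373 wild-type fragments, a log2 ratio of -0.79 (-0.90 to -0.69). Both host ratios lay inside the interval of the small RNA. Snora26 and its host Dancr, a noncoding RNA, likewise had log2 ratios of -0.89 and -1.14. Snora24 differed from its host, since Snhg8 had 973 p65-null and 1089.5 wild-type fragments and a log2 ratio of 0.32 (0.20 to 0.45). Snora47 lay in an intron of Zbed3, a zinc finger gene with a log2 ratio of -0.09 (-0.30 to 0.12).

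Ribosomal protein genes hosted 31 small RNAs, of which 13 were measured in 13 hosts. Their log2 ratios ran from 0.09 to 0.85 with a median of 0.52, whereas their small RNAs had a median of 0.00 and 11 of 13 lay below their host. Scaling to ribosomal protein genes shifts hosts and small RNAs alike, by -0.41 in the median of all entries, and leaves the gap between them as it is. Rpl13a had 32005 p65-null and 24829.5 wild-type fragments, a log2 ratio of 0.85, against -0.39 for Snord33. Rpl12 had a log2 ratio of 0.62, against a fold of 1.00 for Snora65. Rps2 had a log2 ratio of 0.44, against -0.30 for Snora64, and Rpl3 had 0.47, against -0.67 for Snord83b. In these 4 pairs the host lay outside the interval of the small RNA, and in the other 9 of the 13 it lay inside. Rack1, a ribosome-bound scaffold gene, lay outside as well, with a log2 ratio of 0.77 against -0.12 for Snord96a. The 7 Snhg hosts of 8 measured small RNAs had a median of -0.42, against 0.11 for the small RNAs, of which 3 of 8 lay below their host. Snhg1 had a log2 ratio of -0.53, against 0.10 for Snord22, and Snhg12 had -0.96, against 0.38 for Snora44. Snhg7 had a log2 ratio of 0.07, against -0.58 for Snora17.

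Members that share a host share its precursor, and 20 hosts held 47 of the small RNAs. In Snhg12, Snora44 and Snora16a had log2 ratios of 0.38 and 0.41 (10 p65-null and 10.5 wild-type fragments for Snora16a). Snora61 in the same host had 7.5 p65-null and 5.5 wild-type fragments, and Snord99 had 2.5 p65-null and 8 wild-type. In Rps3, Snord15a had 15 p65-null and 13 wild-type fragments and a log2 ratio of 0.69 (-0.48 to 1.88), beside 1.19 for its near relative Snord15b. Reads of the Snord15 pair may be shared in part where their sequences match. In 2410006H16Rik, Snord49a and Snord49b had log2 ratios of 0.06 and -0.39, and the host 0.21. In Snhg16, Snord1a had 8 p65-null and 10.5 wild-type fragments.

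**Figure D4:**
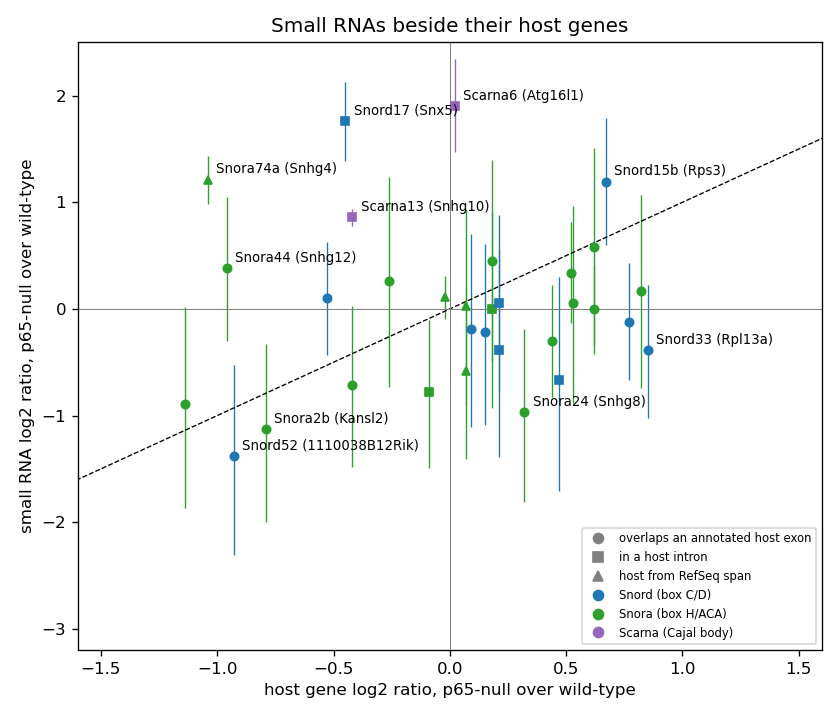
Log2 ratio, p65-null over wild-type, of 32 measured small RNAs (vertical axis, with 95% counting intervals) against that of their host gene (horizontal axis); symbols show exon overlap, intronic position or a host known by RefSeq span, and the dashed line marks equal ratios. Snord17, Scarna6, Snora74a and Scarna13 lie above the line with intervals that do not reach it, and Snord33 and Snora24 lie below it.

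The protein partners of these RNAs did not share the ratios of Rpph1 and Rmrp. Of 11 listed protein genes of RNase P and RNase MRP, 10 were measured, 0 passed 2-fold upward and 2 passed it downward, and the median log2 ratio was -0.40. These counts, and those of the lists that follow, stand beside 12.2% upward and 13.7% downward among all measured entries, so that 2 of 10 is close to the background. Pop1, the largest shared subunit, had 1266.5 p65-null and 3697.5 wild-type fragments, a log2 ratio of -1.06 (-1.15 to -0.97). Rpp40 had 75 p65-null and 228.5 wild-type fragments, a log2 ratio of -1.12 (-1.52 to -0.74). Pop5 followed at -0.86, and Rpp25l was the highest of them, at 0.34 (0.16 to 0.51). The RNA subunits of these enzymes thus had higher ratios than any of their 10 measured protein genes. Rpp25, the listed gene too sparse to be measured, had 8 p65-null and 2 wild-type fragments, a log2 ratio of 2.48 (0.16 to 5.76).

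Core proteins of the guide particles all stayed within 2-fold. The 4 box C/D proteins had a median of -0.45 and the 4 box H/ACA proteins a median of -0.30. Nop58, a box C/D core protein, had 1545 p65-null and 3607 wild-type fragments, a log2 ratio of -0.74 (-0.83 to -0.65). Fbl, the methyltransferase fibrillarin, had 1194 p65-null and 1663.5 wild-type fragments, a log2 ratio of 0.01 (-0.10 to 0.11). Dkc1, the pseudouridine synthase dyskerin, had 1140.5 p65-null and 2984.5 wild-type fragments, a log2 ratio of -0.90. Nop10, a small H/ACA subunit, had a log2 ratio of 0.34 (0.23 to 0.46). Nop56, Snu13 and Nhp2, further core proteins, had log2 ratios of -0.46, -0.43 and -0.40. Of 12 assembly genes, 1 passed 2-fold downward and 0 upward, around a median of -0.14. That gene was Naf1, an H/ACA assembly factor, with 240 p65-null and 816.5 wild-type fragments and a log2 ratio of -1.28 (-1.50 to -1.07). Pih1d1, a subunit of a chaperone complex, ran the other way at 0.74 (0.60 to 0.87). Nolc1, a nucleolar and Cajal body chaperone of snoRNPs, had a log2 ratio of -0.69, and Nufip1, a box C/D assembly factor, had -0.72.

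Genes that make and trim small RNAs were mixed. Of 22 snRNA transcription and 3′ processing genes, 3 passed 2-fold downward and 0 upward, around a median of 0.09, a downward share near the 13.7% of all measured entries. Bdp1, a subunit of the polymerase III initiation factor TFIIIB, had 229.5 p65-null and 939.5 wild-type fragments, a log2 ratio of -1.55 (-1.76 to -1.34). The Integrator genes Ints8 and Ints13 had log2 ratios of -1.45 and -1.38, and the highest of this list were Snapc2 at 0.78 and Snapc5 at 0.89, subunits of the snRNA activating complex. Of 6 trimming and cap genes, 2 passed 2-fold downward and 0 upward, around a median of -0.28. Tgs1, which hypermethylates snoRNA and snRNA caps, had 85.5 p65-null and 438 wild-type fragments, a log2 ratio of -1.87 (-2.22 to -1.53). Tent4b, a poly(A) polymerase that marks small RNA ends, had a log2 ratio of -1.10, and Parn, the nuclease that removes such tails, had 0.42 (0.24 to 0.59).

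Partners of the remaining RNAs held the widest spread. Tert, the telomerase protein, had 80 p65-null and 40.5 wild-type fragments, a log2 ratio of 1.47 (0.90 to 2.05), beside 0.29 for Terc. Of the 5 Ro, La and vault genes, Ro60 had 158.5 p65-null and 896 wild-type fragments, a log2 ratio of -2.01 (-2.27 to -1.77). Ssb, which encodes La, a binder of new polymerase III transcripts, had a log2 ratio of -0.92 (-1.01 to -0.82). The vault genes stood on the other side, with log2 ratios of 1.58 for Tep1, 0.85 for Parp4 and 0.60 for Mvp. Of 7 genes of the 7SK particle, which holds back the transcription elongation factor P-TEFb, 1 passed 2-fold upward and the median was -0.22. It was the inhibitor gene Hexim2, with 125.5 p65-null and 42 wild-type fragments and a log2 ratio of 2.06. Of 21 snRNP protein genes 0 passed 2-fold, around a median of -0.15, and the lowest, Lsm2, had a log2 ratio of -0.78.

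**Figure D5:**
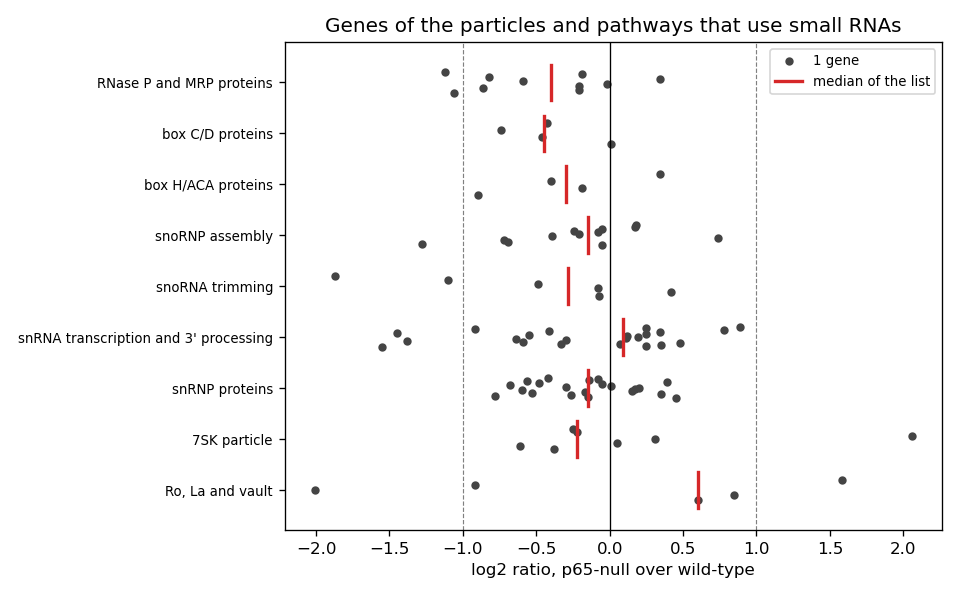
Log2 ratio, p65-null over wild-type, of each measured gene (points) in 9 lists of proteins that bind, assemble, transcribe or trim small RNAs, with the list median as a red bar and dashed lines at 2-fold. The RNase P and MRP list has a median of -0.40 and a highest gene at 0.34, and no point of the box C/D, box H/ACA or snRNP lists lies beyond 2-fold.

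Other transcripts that lack or may lack poly(A) tails were set beside these values. RefSeq transcript NR_046233, which has no symbol in the tables used, took 3.75% of p65-null and 3.03% of wild-type fragments, a log2 ratio of 0.36. Replication-dependent histone genes were measured in 55 cases, with 1 past 2-fold upward, 0 downward and a median of 0.39. That list was chosen after their values were seen. Genes of miRNA precursors were measured in 44 cases, with 5 past 2-fold upward, 6 downward and a median of 0.10. Among all measured entries 12.2% passed 2-fold upward and 13.7% downward. The miRNA counts were near that background and the histone counts below it. The nuclear noncoding RNAs Malat1 and Neat1 had log2 ratios of -0.62 and -1.06. The ratios of Rpph1 and Rmrp were thus larger than the median of each of these groups. The highest histone gene, at 2.29, stood above both, and the highest miRNA gene was at 1.56. The part of RNA selection or library preparation in the ratios of Rpph1 and Rmrp was not tested.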

How the data were processed

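RNA of 1 p65-null and 1 wild-type library was sequenced, per the labels, with an Illumina HiSeq. Per the submitters' processing notes, STAR 2.4, bcl2fastq 2.16, HOMER and edgeR were used with mm10, in roles not stated. What counting rule, strand setting, annotation release and filters were used is not stated there. The authors' deposited values are a scaled signal: both columns sum to nearly the same total (18117930 p65-null, 18117934 wild-type), and raw counts had been assumed in planning. Within a column the deposited signal is in whole multiples of 0.5867 (p65-null) or 0.4356 (wild-type); of the 14648 p65-null and 14708 wild-type values below the limit where steps can be told apart, 100% were whole within 0.0055 units. This gave 30882788 p65-null and 41588951 wild-type reads, taken as 2 per fragment, since even numbers were in excess. No count test was run on them, because a single library per genotype gives no residual degrees of freedom.

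Symbols came from a RefSeq GRCm38 gene table (16743 transcripts) or GENCODE M21 (83); 55 had no match. Library sizes were scaled with edgeR 4.0.16 (R 4.3.3) by TMM, with factors of 0.981 for p65-null and 1.02 for wild-type. Ratios are p65-null over wild-type, with exact Clopper-Pearson 95% intervals (scipy 1.17.1) for the share of fragments in the p65-null library. No ratio was given where neither library passed 3 fragments, and a gene counted as measured at a mean of 1 CPM. On simulated data for this comparison, run on 12135 genes, intervals held the true value for 95.6% of unchanged genes and for 92% to 100% of genes changed 2-fold or 4-fold. The simulated counts held counting noise only, which the intervals assume, so this checks the calculation and not the spread between cultures. GC and length were corrected by loess (span 0.3). Every small RNA with at least 10 fragments over both libraries was named, and of each protein list up to 3 genes on either side by the interval end nearest 0, except 2 small RNAs whose values are not reported here. The members and lists were chosen with earlier results of these data known. Alternatives were DESeq2 1.42.0 size factors, other scalings, other minimums, a prior count, thinning, and leaving out overlapping members.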

Additional observations from a re-analysis of the deposited data

How the results depend on the processing

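The counts of small RNAs past 2-fold, 6 upward and 2 downward, and the class medians moved with several settings. With no minimum the counts were 10 higher and 12 lower of 79, beside 2230 higher and 2153 lower of 14348 entries. With a minimum of 5 CPM, 5 were higher and 0 lower of the 9 RNAs left, beside 924 higher and 1217 lower of 10169 entries. The median over these 9 was 1.21, and that for Snord was 1.76, from Snord17 alone. Scaled to 80 ribosomal protein genes, which shifted the median of all entries by -0.41, 4 of 38 were higher and 7 lower. Beside these stood 900 higher and 3020 lower of 12125 entries. There the Scarna median was 0.97 and that of the other RNAs 1.24. The share of higher among all 2-fold entries was 23%, against 46.9% in the main setting. The median of the other RNAs (1.64) was 1.59 by total counts and 1.76 by upper quartile (a shift of 0.11 in the median of all entries). It was 1.77 with no minimum and 1.07 with the GC and length correction. Under that correction 1 of 38 was lower, Snora47 (-1.07), beside 1111 lower of 12059 entries, while Snord52 and Snora2b were within 2-fold. The 6 measured members with no overlapping listed entry gave 2 higher and 0 lower, beside 12.2% higher and 13.7% lower among all measured entries. In alternatives added after seeing the data, the 18 measured members with no exon overlap gave 0 lower, beside the same background. The median of the other RNAs was 0.29 without Rpph1 and Rmrp. Signs changed in 30 cases over 23 of the named RNAs, 16 under ribosomal protein scaling and 11 under the GC and length correction. Among RNAs whose interval left out 0, these were Terc under both (-0.12 and -0.45) and Snora2b under the correction (0.07). The cause was not tested. Rpph1 stayed between 1.28 and 2.07 and Rmrp between 1.07 and 1.76 under the alternatives that kept them. Of 706 values of the 63 named RNAs under alternatives, 686 moved by less than their counting interval. Part of this was fixed in advance, since a changed minimum or a left-out member does not alter the ratio of any other RNA. Such values were 63 with no minimum, 63 with a minimum of 5 CPM, and 61, 32 and 8 with members left out. Most snoRNAs had too few fragments to show even a 2-fold difference, and no replicate limits any ratio. No paired analysis was possible because each genotype has 1 library.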
